A study of Mus musculus with 6 samples.

Results

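Chondroitin and dermatan sulfate are long sugar chains that are attached to the core proteins of proteoglycans, and the enzymes that place sulfate on these chains were examined in the forebrain of *Slc13a4*+/- mice. The group was defined by gene symbol and holds 10 of the 35523 genes with a transcript in the files, namely *Chst3*, *Chst7*, *Chst11*, *Chst12*, *Chst13*, *Chst14*, *Chst15*, *Ust*, *Dse* and *Dsel*. Of the 10, 9 had enough counts for a test, and *Chst13* did not. RNA-Seq had been carried out on the whole forebrain at postnatal day 20 (P20) from 3 *Slc13a4*+/- mice and 3 wild-type mice, all on the C57BL/6 strain, with each library made from its own mouse. The heterozygous mice carry the allele that the submitters call Nas2Del, which leaves 1 intact copy of *Slc13a4*, the gene of a sodium-coupled sulfate transporter. Heterozygous males had been bred to wild-type females, and wild-type littermates were the controls. The sex and litter of each mouse and the part of the gene that the allele lacks were not stated. Values for single mice are given in the order Nas2Del_Het_1024, Nas2Del_Het_1025, Nas2Del_Het_1027, and then Nas2Del_WT_1016, Nas2Del_WT_1018, Nas2Del_WT_1026.

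As background, a chondroitin chain repeats a glucuronic acid and an *N*-acetylgalactosamine, and its sulfates are transferred in the Golgi from the donor PAPS. *Chst11*, *Chst12* and *Chst13* place sulfate on the 4-O position of the galactosamine, whereas *Chst3* and *Chst7* use the 6-O position. The epimerases encoded by *Dse* and *Dsel* turn glucuronic acid into iduronic acid, which makes the chain dermatan sulfate, and *Chst14* then adds 4-O sulfate next to the iduronic acid. *Chst15* adds a 6-O sulfate to units that already carry 4-O sulfate, and *Ust* sulfates the 2-O position of the uronic acid. In the brain these chains are borne by lecticans and other matrix proteoglycans, the proportion of 4-O to 6-O sulfate rises as the postnatal brain matures, and perineuronal nets are rich in 4-O sulfated chains.

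The libraries held 60340337 to 80410582 estimated counts, and *Slc13a4* followed the labels. Its level in CPM (counts per 1000000 counts of a mouse, after TMM normalization) was 5.60, 6.57 and 5.41 in the *Slc13a4*+/- mice and 10.4, 9.36 and 8.23 in the wild-type mice, without overlap. This was a log2 fold change of -0.67 (SE 0.11). The adjusted p was 0.4995 in edgeR, while DESeq2 with transcript lengths as offsets gave 0.0024. The threshold used throughout was an adjusted p under 0.1. EdgeR called 1 gene over all mice and 223 when Nas2Del_WT_1026 was left out. Mouse Nas2Del_WT_1016 had 105 CPM of the Y-linked gene *Ddx3y*, and no other mouse had more than 0.033. Of 7 markers of cerebellum and hindbrain, *Hoxb3* and *Hoxb5* had at most 0.030 CPM, and the other 5 reached 0.62 (*Pcp2*) to 2.82 CPM (*Fat2*). Their summed CPM was 7.36 in Nas2Del_Het_1024 and 2.80 to 4.42 in the other mice. Markers of neurons, glia, vessels, choroid plexus and meninges were all detected.

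The RNA of the 4-O enzymes outweighed that of the 6-O enzymes *Chst3* and *Chst7* in every mouse. Enzyme protein, enzyme activity and the sulfation of the chains were not measured. Levels were compared between genes as TPM, which the authors' Salmon run scaled by transcript length, summed over the transcripts of a gene. *Chst11*, the main chondroitin 4-O sulfotransferase, was the highest of the 10 genes. It had 28.1, 27.1 and 28.1 TPM in the *Slc13a4*+/- mice and 26.9, 26.4 and 28.1 TPM in the wild-type mice, and the groups overlapped. *Chst12*, which also acts at the 4-O position, had 15.3, 14.1 and 14.9 TPM against 13.3, 12.8 and 14.4. Its TPM values overlapped, while in CPM all *Slc13a4*+/- values (11.7 to 12.7) lay just above all wild-type values (11.2 to 11.6).

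*Chst13*, the remaining chondroitin 4-O enzyme, was close to absent from this tissue. It had 1, 0 and 0 estimated counts in the *Slc13a4*+/- mice and 3, 0 and 2 in the wild-type mice, where a count of 0 allows up to 3 counts. The highest listed level was 0.062 TPM, in Nas2Del_WT_1016, and no difference was detectable at this depth. *Chst14*, the dermatan 4-O sulfotransferase, had 1.60, 1.44 and 1.47 TPM in the *Slc13a4*+/- mice and 1.23, 1.42 and 1.24 TPM in the wild-type mice. These TPM values did not overlap, but the CPM of Nas2Del_WT_1018 (1.34) lay above that of Nas2Del_Het_1025 (1.33). With only 77.0 to 116 counts per mouse, it was the most thinly counted of the genes tested.

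The 6-O enzymes were both low. *Chst3* had 2.62, 2.44 and 2.51 TPM in the *Slc13a4*+/- mice and 2.57, 2.39 and 2.32 TPM in the wild-type mice. *Chst7* had 2.55, 2.27 and 2.16 TPM against 2.24, 2.20 and 2.50. The groups overlapped for both genes, and *Chst3* was the higher of the pair in 5 of 6 mice, so their order is not set apart from the spread. *Chst7* lies on the X chromosome, and in Nas2Del_WT_1016, the mouse with *Ddx3y*, its 2.24 CPM fell within the 2.10 to 2.52 CPM of the other mice.

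*Chst15* and *Ust*, which act on chains that are sulfated or being sulfated elsewhere, were both among the higher genes. *Ust* ranked second, with 23.4, 23.7 and 24.4 TPM in the *Slc13a4*+/- mice and 24.7, 23.6 and 26.3 TPM in the wild-type mice. *Chst15* had 19.6, 19.3 and 19.8 TPM against 18.5, 18.2 and 20.0. Neither separated the genotypes.

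The epimerase level came mostly from *Dsel*. It had 21.7, 20.7 and 21.7 TPM in the *Slc13a4*+/- mice and 17.5, 19.0 and 20.8 TPM in the wild-type mice, and made up 79.5% to 82.4% of the summed TPM of both epimerases. *Dse* had 5.11, 5.07 and 5.06 TPM against 4.50, 4.80 and 4.43. The order of the 10 genes by mean TPM was *Chst11*, *Ust*, *Dsel*, *Chst15*, *Chst12*, *Dse*, *Chst3*, *Chst7*, *Chst14* and *Chst13*. Neighbours in this order kept apart over all 6 mice except *Dsel* and *Chst15*, of which *Dsel* was higher in 5 of 6 mice, and *Chst3* and *Chst7*.

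**Figure D1:**
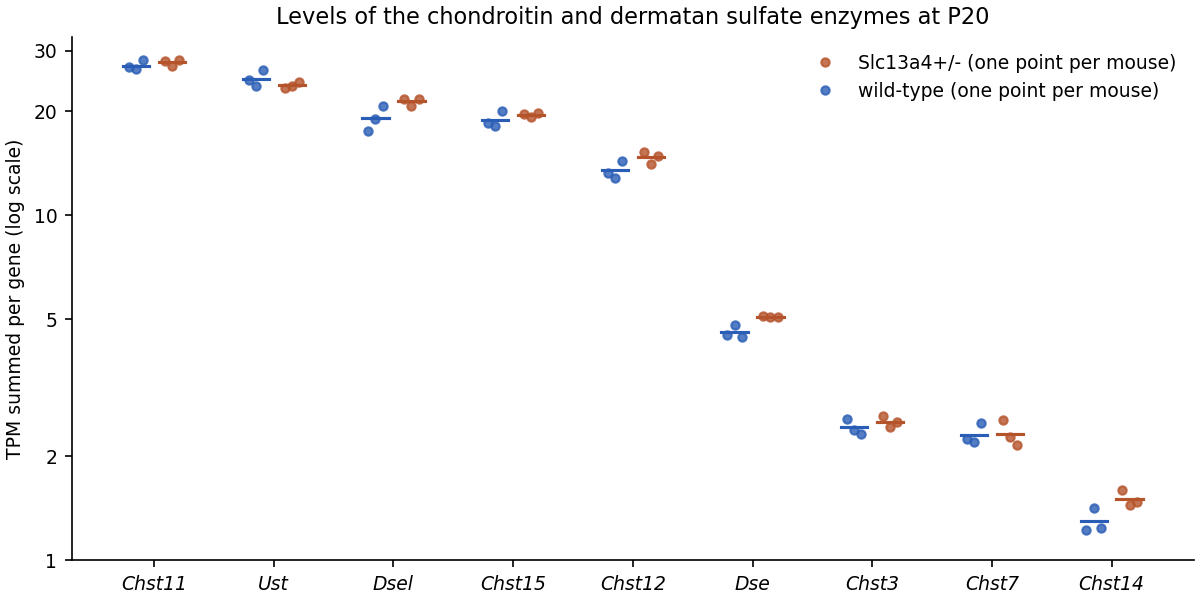
Levels in TPM summed per gene (y axis, log scale) for 9 of the 10 enzymes (x axis, in order of their mean) in the P20 forebrain. Points are mice, short lines are group means (n = 3 per genotype), and *Chst13*, at 0 to 0.062 TPM, is left out. The genes span 1.23 TPM to 28.1 TPM, and the genotypes lie close together for each of them.

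The balance of 4-O to 6-O enzymes was alike in size across the mice. The summed TPM of *Chst11*, *Chst12*, *Chst13* and *Chst14* was 8.69, 9.06 and 9.52 times that of *Chst3* and *Chst7* in the *Slc13a4*+/- mice and 8.60, 8.87 and 9.09 times in the wild-type mice. The groups overlapped, with means of 9.09 ± 0.41 (SD, n = 3) and 8.85 ± 0.24 (SD, n = 3). On the log2 scale the difference was 0.038, against a spread of 0.054 (SD) within genotypes. Because the ratio joins chosen genes, no p was computed for it. *Chst15*, which adds a 6-O sulfate to units with 4-O sulfate, had 18.2 to 20.0 TPM and was counted in neither sum. If the log2 TPM of each enzyme counts equally, with *Chst13* left out, the difference was 0.095, and the groups still overlapped.

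Within the 4-O enzymes the share of *Chst11* was 62.5%, 63.6% and 63.2% of the summed TPM in the *Slc13a4*+/- mice and 64.9%, 65.0% and 64.2% in the wild-type mice. The groups did not overlap, and the share of *Chst12* was higher in each *Slc13a4*+/- mouse (33.0% to 33.9%, against 31.5% to 32.9%). The same order of the groups was seen in CPM, where the share was 83.6% to 84.2% and 84.6% to 85.0%. With the main transcript of each gene it was 69.3% to 70.3% and 70.5% to 71.8%. The mean share of TPM was 63.1% ± 0.58 and 64.7% ± 0.44 (SD, n = 3), and this difference was singled out after the values were seen.

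The epimerases together had 16.8, 17.9 and 18.2 times the TPM of *Chst14* in the *Slc13a4*+/- mice. The ratio was 18.0, 16.8 and 20.3 in the wild-type mice, so the groups overlapped. The log2 difference was -0.055, with a spread of 0.11 (SD) within genotypes, and it turned to 0.020 without Nas2Del_WT_1026.

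**Figure D2:**
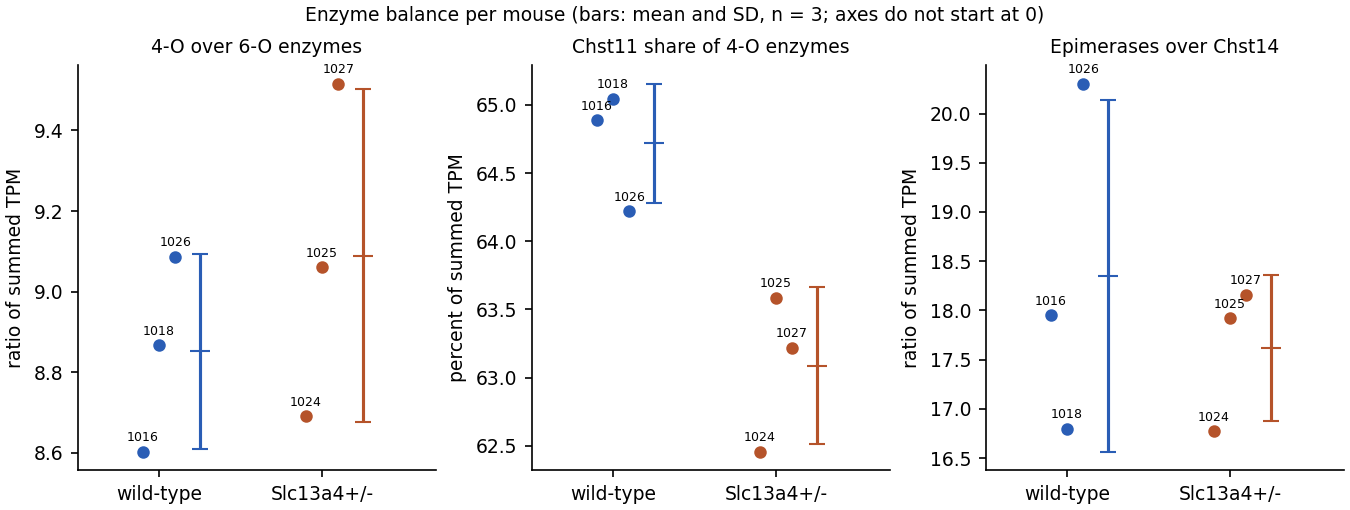
Ratio of 4-O to 6-O enzymes, percent of the 4-O level held by *Chst11*, and ratio of the epimerases to *Chst14* (y axes, from summed TPM, not starting at 0) by genotype. Each point is a mouse, labelled by the last digits of its name, and bars are means with SD (n = 3); the genotypes overlap for both ratios and lie apart for the share of *Chst11*, at 62.5% to 63.6% and 64.2% to 65.0%.

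Whether loss of 1 *Slc13a4* allele goes with a change in these enzymes was tested in the fit over all 17096 genes. EdgeR called 0 of the 9 members tested (0.00585% of all tested genes were called), and DESeq2 called 0 with transcript lengths as offsets (0.502% of all genes) and 0 without them (0.314%). At an unadjusted p under 0.05 there was 1 member, *Dsel*, which was higher (9.15% of all tested genes passed that limit, 4.98% in this direction and 4.17% in the other). The log2 fold changes of the 9 ran from -0.087 to 0.20. Their median was 0.0081, with 5 above 0 and 4 below, and over all tested genes the median was -0.0045, with 8172 above 0 and 8924 below. The CPM of the genotypes did not overlap for 3 of the 9 members, *Dsel*, *Chst12* and *Dse* (15.0% of all tested genes). The first 2 lay above the wild-type mice (7.26% of all) and *Dse* lay below (7.70%).

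Among the members tested, the intervals were narrowest for *Chst11*, *Ust* and *Chst15*. For *Chst11* the log2 fold change was 0.0081 with a 95% interval of -0.080 to 0.096, and for *Chst15* it was -0.0018 with an interval of -0.10 to 0.10. *Chst12* had 0.085 (-0.039 to 0.21). The adjusted p of these genes ran from 0.65 to 0.99 in edgeR, which does not show that their levels are equal. The 6-O enzymes had 0.032 (-0.13 to 0.20) for *Chst3* and -0.014 (-0.28 to 0.25) for *Chst7*. *Chst14* had the largest value and the widest interval, 0.20 (-0.11 to 0.51). *Ust* had -0.087 (-0.18 to 0.011), with an unadjusted p of 0.076 in edgeR. Its CPM was 45.8, 45.8 and 46.8 in the *Slc13a4*+/- mice and 48.9, 46.7 and 51.3 in the wild-type mice, where only Nas2Del_WT_1018 and Nas2Del_Het_1027 crossed.

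**Figure D3:**
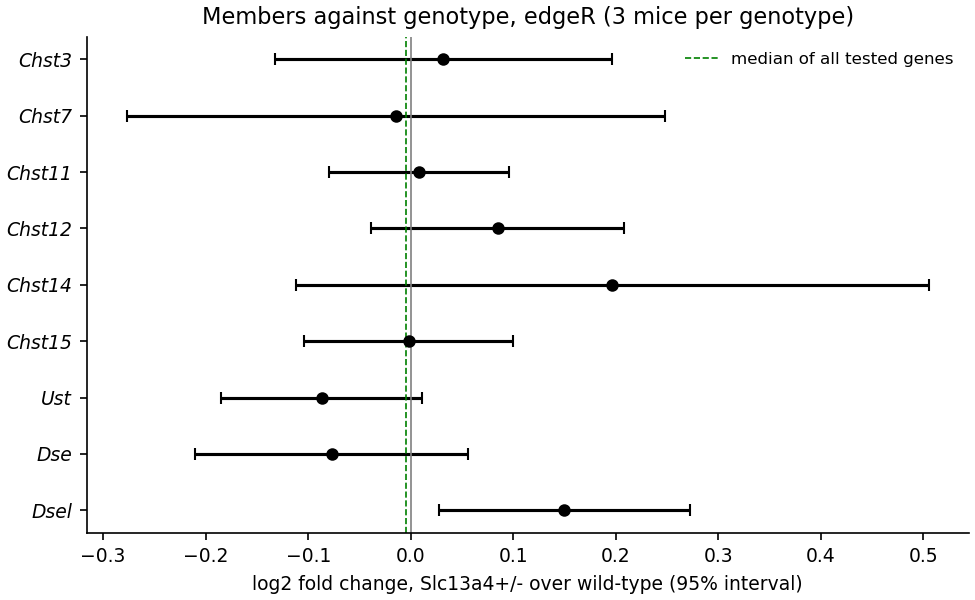
Log2 fold change of *Slc13a4*+/- over wild-type mice (x axis) for the 9 enzymes tested (y axis), from edgeR. Points are estimates and bars are 95% intervals (3 mice per genotype), and the dashed line is the median of all tested genes (-0.0045). The interval of *Dsel* lies above 0 (0.028 to 0.27) and the other intervals include 0.

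*Dsel*, the epimerase gene with the higher TPM here, had 46.2, 45.2 and 46.0 CPM in the *Slc13a4*+/- mice and 38.0, 41.6 and 44.1 CPM in the wild-type mice. The groups did not overlap, and Nas2Del_WT_1026 was the wild-type mouse nearest to the *Slc13a4*+/- mice. The log2 fold change was 0.15 (SE 0.054). In edgeR the unadjusted p was 0.022 and the adjusted p 0.51. Over the 15 alternatives it ran from 0.10 to 0.20, and the adjusted p from 0.10 to 0.86. The unadjusted p stayed under 0.05 in 10 of the 15, but not with length offsets in edgeR (0.065) or DESeq2 (0.068), nor without Nas2Del_WT_1016 (0.0503). The lowest value, 0.10, was obtained without Nas2Del_WT_1016, the mouse with *Ddx3y* and with the lowest *Dsel*. The highest, 0.20, was obtained without Nas2Del_WT_1026, with an adjusted p of 0.104 in edgeR. The part of sex in these values was not tested. In length-scaled TPM, Nas2Del_WT_1026 (20.8) lay among the *Slc13a4*+/- mice.

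The gene (ENSMUSG00000038702) runs from 111858702 to 111864918 on chromosome 1 of GRCm38, minus strand. Most of its counts fell on ENSMUST00000035462, a coding transcript with 2 exons and 5759 bases. Its counts were 3057 to 3478 in *Slc13a4*+/- mice, against 2362 to 3299 in wild-type mice, and its log2 fold change among 54721 tested transcripts was 0.14 (SE 0.058, adjusted p 0.67 in edgeR). A non-coding transcript of 622 bases, ENSMUST00000189370, had 48.7 to 86.6 counts but 18.5% to 22.7% of the TPM of the gene, since TPM divides by length. The TPM of *Dsel* above thus includes that part, and the main transcript alone had 16.5 to 16.8 TPM in *Slc13a4*+/- mice, against 13.5 to 15.7 TPM in wild-type mice.

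Because *Dsel* was the member with an unadjusted p under 0.05, the 250 bases before its start in RefSeq are shown (GRCm38.p6, chr1:111864919-111865168, minus strand), with capitals for the letters GGGCGG on either strand, the core of the GC box:
*Dsel* upstream: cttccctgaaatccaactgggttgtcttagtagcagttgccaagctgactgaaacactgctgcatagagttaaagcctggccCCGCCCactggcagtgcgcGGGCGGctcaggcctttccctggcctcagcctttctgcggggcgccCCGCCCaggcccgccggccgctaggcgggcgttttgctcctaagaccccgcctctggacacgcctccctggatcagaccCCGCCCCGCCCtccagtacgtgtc
All 10 members matched a RefSeq promoter by symbol, with 11 windows as *Chst15* has a pair of them, which overlap. The *Dsel* window holds 5 matches to GGGCGG, 2 of which overlap by a base, and 17 CpG. Each of the 11 member windows had at least 1 match, against 32.7% of 32851 windows of the same length, and 1.93% of all windows had 5 or more. The member windows were richer in CpG, with a median of 17 against 6 over all windows, and 23.5% of all windows had 17 or more. The share with a match among windows of like CpG was not computed. The letters TATAAA were found on neither strand in the 11 member windows, against 12.4% of all windows. These are descriptions of the letters and say nothing of which factors bind there.

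*Dse*, the other epimerase, gave an opposite order of the genotypes on the scales of CPM and TPM. Its CPM values were 8.48, 8.53 and 8.73 in the *Slc13a4*+/- mice and 8.85, 9.41 and 8.91 in the wild-type mice, all lower in the *Slc13a4*+/- mice. In TPM the same mice had 5.06 to 5.11 and 4.43 to 4.80, and each *Slc13a4*+/- mouse was higher. The fold change (log2) was -0.077 (SE 0.058, adjusted p 0.70) in edgeR on counts, and with average transcript lengths as offsets it was 0.12 (SE 0.070, adjusted p 0.65) in edgeR and 0.12 (SE 0.099, adjusted p 0.95) in DESeq2.

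The counts per transcript show where the scales part. The main transcript, ENSMUST00000048010 (6 exons, 4389 bases), had 569 to 654 counts in *Slc13a4*+/- mice, against 568 to 691 in wild-type mice. A pair of non-coding transcripts under 300 bases had at most 4 counts each, yet they held up to 14.9% and 5.22% of the TPM of the gene, since TPM divides by length. ENSMUST00000216194 had 4, 1 and 2 counts in the *Slc13a4*+/- mice and 1, 1 and 0 in the wild-type mice, which made 4.27% to 14.9% and 0% to 5.05% of the TPM. ENSMUST00000216774 had 1.03, 1.07 and 1.10 counts in the *Slc13a4*+/- mice, and none in any wild-type mouse, which made 4.40% to 5.22% and 0% of the TPM. A coding transcript of 1249 bases, ENSMUST00000217051, had 0, 18.5 and 3.53 counts in the *Slc13a4*+/- mice, where it made 0% to 10.1% of the TPM, and 0, 0 and 3.54 counts in the wild-type mice.

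Both short transcripts are shown as GENCODE M21 gives them (GRCm38, chromosome 10, minus strand). The direction of *Dse* in the fits with length offsets turned when they were left out. Capitals mark bases that the main transcript also holds, and lower case marks bases that lie in its introns:
ENSMUST00000216194: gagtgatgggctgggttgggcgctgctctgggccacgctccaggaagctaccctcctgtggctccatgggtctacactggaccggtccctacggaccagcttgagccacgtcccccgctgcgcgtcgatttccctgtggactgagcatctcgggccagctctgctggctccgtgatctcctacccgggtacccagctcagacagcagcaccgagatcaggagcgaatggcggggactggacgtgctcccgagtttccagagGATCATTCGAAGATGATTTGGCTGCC
ENSMUST00000216774: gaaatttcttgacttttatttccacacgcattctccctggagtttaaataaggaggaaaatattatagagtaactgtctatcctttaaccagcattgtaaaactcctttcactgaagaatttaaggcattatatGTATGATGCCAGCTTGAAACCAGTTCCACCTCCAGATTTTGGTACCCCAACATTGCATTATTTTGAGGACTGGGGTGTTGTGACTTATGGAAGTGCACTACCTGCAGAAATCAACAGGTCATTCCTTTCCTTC
The first has 261 of 287 bases in an intron of the main transcript (exon 1 from 34206817 to 34207077) and 26 shared. The second has 134 of 267 bases in an intron (exon 1 from 34155131 to 34155264) and shares 133 coding bases. Salmon divides reads from shared bases between transcripts by a model, so single reads on such transcripts are uncertain.

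With transcripts under 300 bases left out, the log2 fold change of *Dse* with length offsets was -0.045 (SE 0.072) in edgeR and -0.047 (SE 0.10) in DESeq2, an alternative added after these counts were seen. The mean effective length of *Dse* was 3446 to 3642 bases in *Slc13a4*+/- mice, against 4030 to 4176 in wild-type mice with all transcripts. Without the short ones it was 3887 to 4237 and 4176 to 4237. The main transcript alone had 4.08 to 4.31 TPM in *Slc13a4*+/- mice, against 4.28 to 4.55 in wild-type mice, and these overlapped. No setting gave *Dse* an unadjusted p under 0.05.

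**Figure D4:**
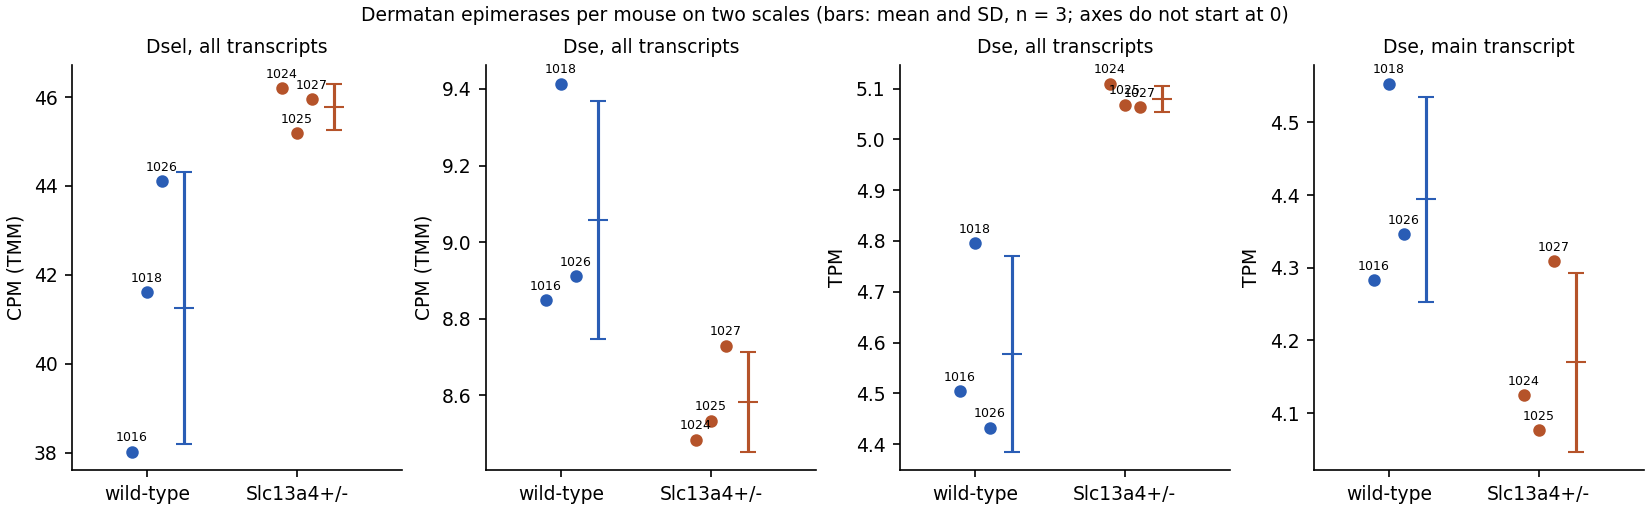
*Dsel* in CPM, *Dse* in CPM, *Dse* in TPM over all its transcripts, and the main *Dse* transcript in TPM (y axes, not starting at 0) by genotype. Each point is a mouse, labelled by the last digits of its name, and bars are means with SD (n = 3); *Dse* is lower in the *Slc13a4*+/- mice in CPM (8.48 to 8.73 against 8.85 to 9.41) and higher in TPM over all transcripts (5.06 to 5.11 against 4.43 to 4.80).

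At the level of transcripts, the files list 25 for the 10 genes, of which 3 had no counts in any mouse and 15 were tested. EdgeR called 0 of the 15 (0% of 54721 tested transcripts), with 1 at an unadjusted p under 0.05, the main *Dsel* transcript (7.41% of all). No member has an annotated retained-intron transcript. *Chst15* had 68.1% to 73.2% of its TPM on ENSMUST00000080215 and 19.2% to 26.5% on ENSMUST00000077472, both coding, and the shares overlapped between genotypes. *Chst12* had 24.5% to 32.3% of its TPM on a coding transcript of 766 bases with 56.6 to 107 counts. *Chst7*, *Chst11* and *Chst13* have a single transcript. A non-coding *Dsel* transcript, ENSMUST00000186365, varied from 0 to 104 counts, and its log2 fold change was -1.97 (SE 1.25, adjusted p 0.71 in edgeR). A second coding transcript of *Chst3*, ENSMUST00000068690, had 25.1 and 46.3 counts in Nas2Del_Het_1025 and Nas2Del_Het_1027 and 0 in the other 4 mice, and it had too few counts to be tested.

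Counting by strand could matter for *Chst15* alone, as it was the member with exons that an annotated antisense gene (*Gm10584*) overlaps. That gene has no transcript in the files, and the libraries were stranded.

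The genes that build the chains and supply the sulfate donor were then read from the same fit. The 5 lists of such genes held 50 genes, and all 50 were tested. EdgeR called 0 of them, as did DESeq2 with and without length offsets, and 3 had an unadjusted p under 0.05 in edgeR, 1 higher and 2 lower (9.15% of all tested genes had such a p, 4.98% higher and 4.17% lower). Of the 50, 15 were above 0 and 35 below, with a median of -0.034, and the CPM of the genotypes did not overlap for 10 (15.0% of all tested genes).

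Of the 13 genes of linker and chain synthesis, 6 were above 0 and 7 below (median -0.012). *Chpf2*, a subunit of the chondroitin polymerase, had 63.6, 66.7 and 67.4 CPM in the *Slc13a4*+/- mice and 61.0, 58.1 and 59.3 CPM in the wild-type mice. *Chsy1*, its catalytic partner, had 25.1, 25.3 and 25.0 CPM against 26.8, 26.8 and 27.8. Neither gene overlapped between the genotypes, and they lay in opposite directions. The log2 fold changes were 0.15 (SE 0.040) for *Chpf2* and -0.11 (SE 0.036) for *Chsy1*, both with an adjusted p of 0.4995 in edgeR. *Xylt2*, a xylosyltransferase that starts the linker, had 0.070 (SE 0.040), and *B3gat3*, which ends it, had -0.072 (SE 0.042).

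Of the 10 genes of PAPS and nucleotide sugar supply, 9 were below 0 (median -0.056). Their summed CPM was 578, 560 and 573 in the *Slc13a4*+/- mice and 586, 587 and 582 in the wild-type mice, and did not overlap, though 0 of the 10 had an unadjusted p under 0.05 in edgeR. The gene with the largest part in this sum had 278 to 293 CPM and itself overlapped between genotypes. The log2 fold change of *Slc35b2*, a carrier of PAPS into the Golgi, was -0.15 (SE 0.072), or -0.061 without Nas2Del_WT_1016, and *Bpnt1*, which breaks down the product left by sulfation, had -0.092 (SE 0.043). *Ugdh*, which makes UDP-glucuronic acid, had -0.084 (SE 0.041). *Slc26a2*, a sulfate transporter, was the 1 gene above 0, at 0.12 (SE 0.071).

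Of the 11 genes of desulfation and breakdown, 3 were above 0 and 8 below (median -0.0075), with 0 at an unadjusted p under 0.05. *Hexa*, which encodes a lysosomal hexosaminidase subunit, had a value of -0.082 (SE 0.039) on the log2 scale. *Idua*, the lysosomal iduronidase that acts on dermatan sulfate, had 0.13 (SE 0.070), and the hyaluronidase gene *Hyal1* had -0.11 (SE 0.090). With length offsets *Idua* had 0.21 in edgeR. None of these named genes overlapped between genotypes in CPM (15.0% of all tested genes did not), and they were named for having the smallest p of their list.

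Of the 11 core proteins that bear the chains, 3 were above 0 and 8 below (median -0.043). *Srgn*, which encodes serglycin, the proteoglycan of blood cell granules, had 3.94, 3.75 and 4.22 CPM in the *Slc13a4*+/- mice and 5.23, 4.83 and 4.27 CPM in the wild-type mice. *Srgn* had -0.26 on the log2 scale (SE 0.099, adjusted p 0.52 in edgeR), and Nas2Del_Het_1027 and Nas2Del_WT_1026 lay next to each other. *Dcn*, a small dermatan sulfate proteoglycan, had -0.12 (SE 0.059), *Vcan*, the lectican versican, had 0.095 (SE 0.060) and *Acan*, the lectican of perineuronal nets, had -0.14 (SE 0.11), or -0.015 in DESeq2 with length offsets. Leaving out Nas2Del_WT_1026 gave *Acan* -0.016 and leaving out Nas2Del_WT_1016 gave it -0.25. *Vcan* had 0.15 with length offsets and 0.031 without Nas2Del_Het_1025. Of the 5 receptors, 2 were above 0 and 3 below (median -0.053), with *Rtn4r*, the Nogo receptor, at -0.10 (SE 0.053), *Rtn4rl1* at -0.059 (SE 0.052), the receptor phosphatase *Ptprf* at -0.053 (SE 0.048) and *Cntn1* at 0.018 (SE 0.034).

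**Figure D5:**
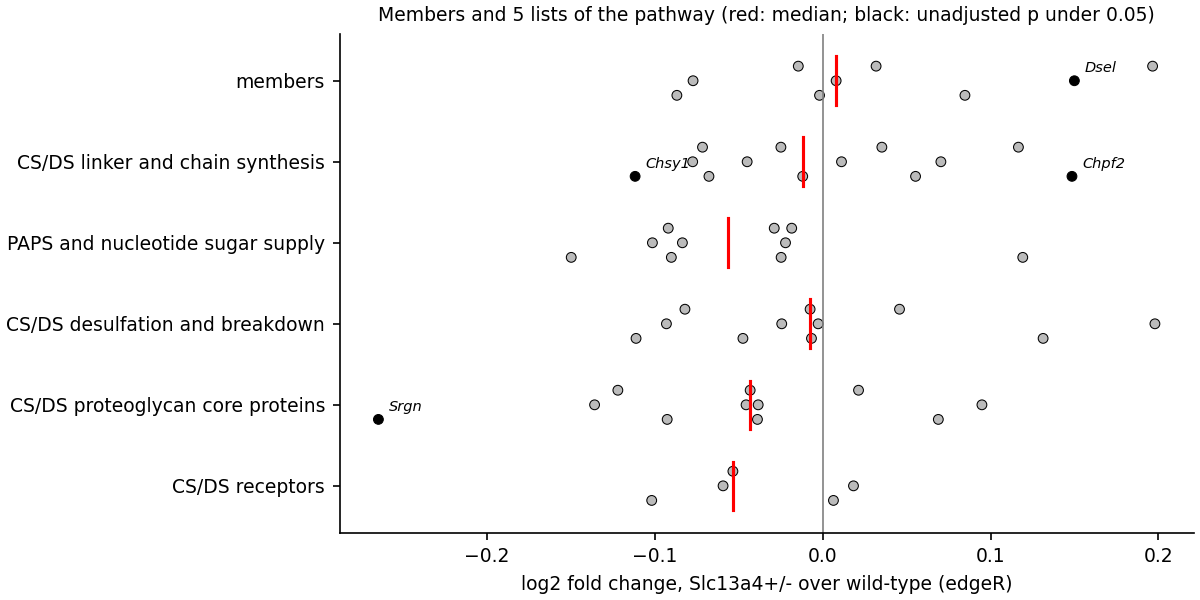
Log2 fold change of *Slc13a4*+/- over wild-type mice from edgeR (x axis) for the 9 enzymes tested and the 50 genes of 5 lists of their pathway (y axis). Points are genes, red lines are medians of the lists, and black points had an unadjusted p under 0.05, namely *Dsel* and *Chpf2* above 0 and *Chsy1* and *Srgn* below; 0 of the genes shown passed an adjusted p under 0.1.

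Marker lists of several cell types lay lower in the *Slc13a4*+/- mice, and for 3 of them the summed CPM did not overlap between genotypes. In bulk tissue, fewer cells of a type and less RNA per cell cannot be told apart. The summed CPM of 6 oligodendrocyte precursor markers was 483 to 516 in *Slc13a4*+/- mice, against 526 to 563 in wild-type mice. For 8 microglial markers it was 384 to 396 and 411 to 423, and for 8 choroid plexus markers 396 to 460 and 481 to 490, without overlap in these lists. *Slc13a4* itself is among the choroid plexus markers. It counts in their sum and as 1 of those below 0 with an unadjusted p under 0.05 in edgeR. Its lower level goes with the genotype by design and says nothing of the cell type. Most of the choroid plexus sum came from *Ttr*, at 353 to 437 CPM. Of the myelinating oligodendrocyte markers all 7 were below 0 (median log2 fold change -0.14, 2 with an unadjusted p under 0.05 in edgeR). For astrocytes it was 7 of 8 (median -0.092, 4 with such a p), and for endothelium and pericytes 6 of 8 (median -0.093, 2). Below 0 were all 8 microglial and 8 choroid plexus markers (4 of each with such a p) and 5 of 6 precursor markers (2). So were all 5 blood markers and 5 of 6 of perineuronal net interneurons (0 of each with such a p). Neurons and meningeal fibroblasts had 4 of 8 below 0, and 1 meningeal marker was higher with such a p. Over all tested genes 8924 of 17096 were below 0, and 4.17% were lower with an unadjusted p under 0.05. The marker sums of neurons (8 genes), perineuronal net interneurons (6), astrocytes (8), myelinating oligodendrocytes (7), endothelium and pericytes (8), meningeal fibroblasts (8), blood (5) and hindbrain (7) overlapped. The part of these cell types in the values of *Dsel*, *Chst12* and *Dse* was not tested.

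The genes with the most similar course over the 6 mice were listed for *Chst3*, *Chst11* and *Dse* by Pearson's correlation of log2 CPM. For *Chst11* they were *Ldah* (r = 0.9999), *Wfs1* (0.994) and *Csgalnact1* (0.989), the last of which encodes a transferase that starts the chondroitin chain. For *Chst3* they were *Mrtfa* (0.987), *Gtpbp3* (0.986) and *Fas* (0.976), and for *Dse* they were *Nt5c* (0.994), *Mrpl50* (0.984) and *Nmb* (0.983). With only 6 mice, 157 of the 17096 tested genes had r above 0.9 with *Chst11*, 81 with *Chst3* and 124 with *Dse*. These lists therefore describe the mice and carry no p, and why the genes are alike was not tested.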

How the data were processed

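Stranded, rRNA-depleted libraries had been made from forebrains of 3 mice per genotype. The authors quantified them with Salmon (1.2.0, per the labels) and deposited expected counts per transcript, together with TPM and effective length. Deposited TPM values correct for transcript length and total 1000000 per mouse. For the transcript set and build of Salmon's index, the sources used here give nothing. Of 117135 transcripts, 115973 were assigned by identifier to genes of GENCODE M21 (GRCm38), and the other 1162 (up to 0.645% of a mouse's counts) were left out. Gene sums of the expected counts were rounded.

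The quasi-likelihood test of edgeR 4.0.16 in R 4.3.3, after filterByExpr and TMM, was fitted over 17096 genes, with Benjamini-Hochberg adjustment and a threshold of 0.1, the study's own. The study used the DESeq2 Wald test after tximeta, and DESeq2 1.42.0 was run as an alternative, with and without average transcript lengths as offsets. SE was the absolute log2 fold change divided by the square root of F, and 95% intervals used the moderated degrees of freedom. Ratios between genes used summed TPM. Transcripts were tested in the same way (54721). Named genes were the 10 members, *Slc13a4*, up to 4 genes of smallest p per list, and the 3 genes most correlated with *Chst3*, *Chst11* and *Dse*; 1 gene that the rule names is not reported here. The members and lists were chosen with earlier results of these data known. Other normalizations, filters, offsets and each mouse left out were tried. The scripts were tested on simulated counts. Each mouse is 1 library, so p-values measure the spread between mice. Python 3.11.15 was used for joins and plots.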

Additional observations from a re-analysis of the deposited data

How the results depend on the processing

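The members, the 50 pathway genes and the member transcripts had 0 calls under every alternative run for them. Directions held for *Chst12*, *Chst14*, *Ust*, *Dsel* and the named pathway genes, while values near 0 turned sign. The log2 fold change of *Chst15* was 0.020 in DESeq2 and 0.022 in edgeR with length offsets (0.020 and 0.022 also with transcripts under 300 bases left out), 0.0030 with a filter at a mean of 1 CPM, 0.0027 without a filter and 0.0077 without retained-intron transcripts, and it ran from -0.029 to 0.041 with each mouse left out. With each mouse left out, *Chst3* ran from -0.0051 to 0.085, *Chst7* from -0.089 to 0.046 and *Chst11* from -0.0081 to 0.029. *Dse* turned to 0.12 with length offsets in both tools. The genes called over the whole fit numbered 147 without a filter, 55 and 88 in DESeq2 without and with length offsets, 0 in edgeR with length offsets, and 0 in edgeR and 83 in DESeq2 with offsets and transcripts under 300 bases left out. They ran from 1 to 223 with each mouse left out (223 without Nas2Del_WT_1026, 5 without Nas2Del_WT_1016). With 0 calls in edgeR with offsets, 1411 genes had an unadjusted p under 0.05. *Slc13a4* passed the threshold at -0.63 and -0.67 in DESeq2 with and without offsets (-0.63 also without the short transcripts), at -0.67 in edgeR without a filter and at -0.76 without Nas2Del_WT_1026, within a range of -0.76 to -0.58 with each mouse left out. The 4-O to 6-O difference was 0.0021 in CPM and 0.095 with equal weights, and ran from 0.0039 to 0.069 with each mouse left out, and the epimerase to *Chst14* difference from -0.12 to 0.020. No paired analysis was possible because the genotypes share no replicate numbers and litters are not stated. The cause of these shifts was not tested. The direction of *Dse* returned once the short transcripts were left out, but that alternative was added after their counts were seen. Low counts limit *Chst14*, and *Chst13* could not be tested.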
